A study of Mus musculus with 12 samples.

Results

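The 4 transcripts described here, 5430431A17Rik, 2010310C07Rik, 2210407C18Rik and 1110064A23Rik, carry RIKEN clone names, and they are 4 of 19687 genes tested in mouse thoracic aorta. They were chosen by their measured difference between P467L and nontransgenic aorta in these same arrays. Their values in that contrast are therefore given as a description, without a test. The intervals printed with their differences do not allow for that choice. These intervals may miss the true difference more often than their stated level, and that they exclude 0 is not read as a test. Each had 1 row in the table with exactly 1 gene symbol, and none shared its row with another gene. A total of 1874 tested genes had a symbol ending in Rik. The 12 arrays each measured the aorta of 1 male C57BL/6 mouse, with no pooling. In 7 of the mice a transgene with the smooth muscle myosin heavy chain promoter drove a dominant-negative human PPARγ, mutant P467L, in vascular smooth muscle. Their 5 littermates carried no transgene and are called nontransgenic. Their ages and the number of founder lines were not stated in the labels used here.

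RIKEN names were given to mouse genes first recorded as full-length cDNA clones, and a gene keeps such a name until a function or a family gives it another. Many of these genes make long noncoding RNAs, transcripts that are often spliced and polyadenylated like messenger RNA but hold no long reading frame; some act on genes beside them and many have no known role. PPARγ is a nuclear receptor that binds DNA with a retinoid X receptor partner and activates genes of fat storage, and in vascular smooth muscle it takes part in the control of vessel tone. The P467L mutant can occupy the same sites but responds poorly to ligand.

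By type, the RefSeq gene table (assembly GRCm38.p6) lists 5430431A17Rik, on chromosome 7, and 2010310C07Rik, on chromosome 6, as long noncoding RNAs. It lists 2210407C18Rik, on chromosome 11, as protein coding, and no role is stated for it here. The Entrez ID that the array annotation gives for 1110064A23Rik was not in that table, where this symbol is a synonym of Lamc3, the laminin gamma-3 chain gene on chromosome 2. Lamc3 also has a row of its own on the array, so the 2 rows are described side by side. The table's assembly differs from the mm9 build of the arrays, so only names, types, chromosomes, gene order and overlap were taken from it, and the promoters shown carry their own coordinates.

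Promoter sequences in RefSeq (GRCm38.p6, 250 bases before to 50 bases after the annotated start) were found for 2 of the 4 transcripts, 5430431A17Rik and 2210407C18Rik. They are shown because these members had the largest difference in each direction. The first lies at chr7:44484267-44484566 on the plus strand, with exact copies of one 12-base unit in capitals, and the second at chr11:58613443-58613742 on the minus strand, with a TATAAA box in capitals.
5430431A17Rik: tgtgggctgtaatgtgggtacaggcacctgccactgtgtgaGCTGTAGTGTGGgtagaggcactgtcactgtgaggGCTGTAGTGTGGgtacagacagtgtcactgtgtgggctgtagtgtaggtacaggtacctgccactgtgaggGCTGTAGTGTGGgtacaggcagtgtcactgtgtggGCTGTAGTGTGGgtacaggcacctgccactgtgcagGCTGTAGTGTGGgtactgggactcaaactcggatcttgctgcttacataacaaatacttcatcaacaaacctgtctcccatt
2210407C18Rik: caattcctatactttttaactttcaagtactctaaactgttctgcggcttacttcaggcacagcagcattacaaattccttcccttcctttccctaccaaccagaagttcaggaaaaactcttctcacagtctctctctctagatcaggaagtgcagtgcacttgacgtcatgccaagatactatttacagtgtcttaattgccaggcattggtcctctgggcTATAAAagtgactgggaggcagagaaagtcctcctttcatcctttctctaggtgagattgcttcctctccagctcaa

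The 5430431A17Rik promoter was repetitive. It held 5 exact copies of GCTGTAGTGTGG, whose starts lay between 35 and 71 bases apart. Of its bases that had another base 71 positions further on in the sequence, 62.0% matched that base. Of the 32851 promoters in the table, 42 (0.128%) matched themselves as well at some shift from 15 to 80 bases. Whether probes of its row fall in such a repeat was not tested. In the 2210407C18Rik promoter, TATAAA, the letters bound by the TATA-binding protein, began at position -27. Of all promoters 8.32% held these letters on the strand of the gene, the only strand searched for them. On that strand 1.84% had them starting between -35 and -20. Neither sequence held AGGTCA, the core motif of nuclear receptor sites, on either strand, against 16.3% of all promoters. The closest match to 2 copies of AGGTCA separated by 1 base, the arrangement bound by PPARγ with its partner, had 5 mismatches in the first sequence and 4 in the second, and 3.86% of all promoters came within 2 mismatches. This longer motif overlaps AGGTCA by construction. Neither sequence held a CArG box, the motif of serum response factor in smooth muscle genes, which 1.63% of promoters held, or GGGCGG, a GC box, which 35.7% held. These counts describe letters in windows of 300 bases and say nothing about whether a factor binds.

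Levels are deposited log2 intensities, so 1 unit is a doubling, and levels of different rows are not ranked against each other. The background was read from 918 genes for smell and pheromone receptors, little expressed outside sensory tissue. The 95th percentile of their means was 5.18, and on a single array a row was above background when it passed that percentile on the same array. The median of an array was 4.74 to 4.79, its upper quartile 6.10 to 6.38 and its mean correlation with the others 0.970 to 0.980. Smooth muscle markers were high in both groups, Myh11 at 11.86 ± 0.09 (SD, n = 5) in nontransgenic and 11.80 ± 0.11 (n = 7) in P467L aorta. Of 100 markers in 10 cell type lists, 88 were measured. In limma 0 of the 88 had an adjusted p under 0.05. An unadjusted p under 0.05 was seen for 7 (7.95%), against 4.82% of all genes. All 8 measured lymphocyte markers lay under background. In whole aorta, fewer cells of a type and less RNA per cell cannot be told apart. Pparg, whose row measures the mouse gene and may also detect the human transgene, was 6.81 ± 0.19 in nontransgenic and 6.82 ± 0.24 in P467L aorta, a difference of 0.01 ± 0.12 (SE), so this row does not check the labels.

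The genotype difference reached an adjusted p under 0.05 (limma, Benjamini-Hochberg) for 48 of the 19687 genes (0.244%), 23 higher (0.117%) and 25 lower (0.127%) in P467L aorta. The 4 transcripts are among the 48 because they were selected on that call, 1 higher and 3 lower, and nothing is read from it. That call held for 5430431A17Rik in all 23 alternatives tried. It was lost for 2010310C07Rik in 6 of 22, for 2210407C18Rik in 7 of 23 and for 1110064A23Rik in 5 of 23. The call of all 3 was lost without nontransgenic replicate 4, without nontransgenic replicate 5, without the 3 arrays least correlated with the rest, and with all rows of the table in one fit. The call of 2010310C07Rik was also lost with the replicate number as a block and without nontransgenic replicate 1, that of 1110064A23Rik without nontransgenic replicate 1, and that of 2210407C18Rik without nontransgenic replicate 3, P467L replicate 4 or P467L replicate 7. The 2 groups of arrays did not overlap for 143 genes (0.726%), and the 4 are also among these. Of the other 1870 Rik symbols, 0 passed the limma threshold, and 105 (5.61%) had an unadjusted p under 0.05, against 4.82% of all genes. The call thus covered 0.213% of Rik symbols and 0.247% of other symbols, and the median difference over all Rik symbols was 0.00. Of 1636 long noncoding RNAs, 0.122% were called, all of these being among the 4. The member nearest to the threshold inside it was 2210407C18Rik. Nearest outside it were 2900055J20Rik, lower by 0.73 ± 0.14 (SE), 2610307P16Rik, lower by 0.55 ± 0.12, and 4930469G21Rik, lower by 0.69 ± 0.16. As for 1110064A23Rik, the Entrez IDs of 2900055J20Rik and 4930469G21Rik were not in the RefSeq table. There these symbols are synonyms of Kctd16 and Tex50.

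The long noncoding RNA 5430431A17Rik was the one transcript of the 4 that was higher in P467L aorta, 3.20-fold. In the nontransgenic mice its log2 level was 9.38, 9.39, 9.35, 9.04 and 9.26. In the P467L mice the lowest level was 10.65, the median 10.81 and the highest 11.58. The groups lay far apart, with 1.26 log2 units between the highest nontransgenic and the lowest P467L array, and P467L replicate 2 stood highest. The means were 9.28 ± 0.14 (SD, n = 5) and 10.96 ± 0.33 (SD, n = 7). Their difference was 1.68 ± 0.15 (SE), with a 95% interval of 1.37 to 1.99, or 6.23 pooled SDs. On all 12 arrays 5430431A17Rik was also above the 99th percentile of the receptors of the same array. Within pairs of the same replicate number, a pairing that the labels do not state, it was higher by 1.73, 2.19, 1.76, 1.77 and 1.51.

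The long noncoding RNA 2010310C07Rik was 1.95-fold lower in P467L aorta, at levels near background. Its nontransgenic levels were 5.67, 5.37, 5.18, 5.67 and 5.80. The P467L levels had a lowest value of 4.25, a median of 4.65 and a highest of 4.98. The groups did not overlap, but only 0.20 log2 units separated nontransgenic replicate 3 from P467L replicate 2. Of the arrays, 4 of 5 nontransgenic and 0 of 7 P467L were above their own background, and 0 of the 12 were above the 99th percentile of the receptors of the same array. The means were 5.54 ± 0.25 and 4.58 ± 0.29, a difference of -0.96 ± 0.15 (SE, 95% interval -1.28 to -0.64). Because the P467L level lies in the range of receptor genes, the fold is one between a level near background and a level within it. The pair of replicates numbered 2 differed by -0.39, and the other pairs by -0.85 to -1.07. With the replicate block the difference was -0.85.

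The protein-coding 2210407C18Rik was 2.38-fold lower. Its nontransgenic levels were 5.66, 5.89, 6.43, 6.76 and 6.19, the widest spread of the 4 transcripts (SD 0.43). In P467L aorta the lowest level was 4.36, the median 5.00 and the highest 5.28. The groups did not overlap, with a gap of 0.38. P467L replicates 1 and 2 were the lowest, at 4.55 and 4.36, and nontransgenic replicates 1 and 2 were the lowest of their group. All 5 nontransgenic arrays and 3 of 7 P467L arrays, replicates 3, 5 and 6, were above background. The P467L mean lay under the background level, so the fold is again one against a level within background. The means of 6.19 ± 0.43 and 4.94 ± 0.36 differed by -1.25 ± 0.21 (SE, 95% interval -1.69 to -0.81), and pairs of the same number differed by -0.93 to -1.86.

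The row named 1110064A23Rik was 2.01-fold lower. The 5 nontransgenic levels were 7.72, 7.48, 7.40, 7.97 and 7.93. The P467L levels ran from 6.33 over a median of 6.73 to 7.12. The groups did not overlap, with a gap of 0.28, and all 12 arrays were above background. The means were 7.70 ± 0.26 and 6.69 ± 0.30, which differed by -1.005 ± 0.15 (SE, 95% interval -1.34 to -0.67). Its pairs of equal replicate number were close to each other, differing by -0.93 to -1.07, the narrowest range of the 4 transcripts.

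**Figure D1:**
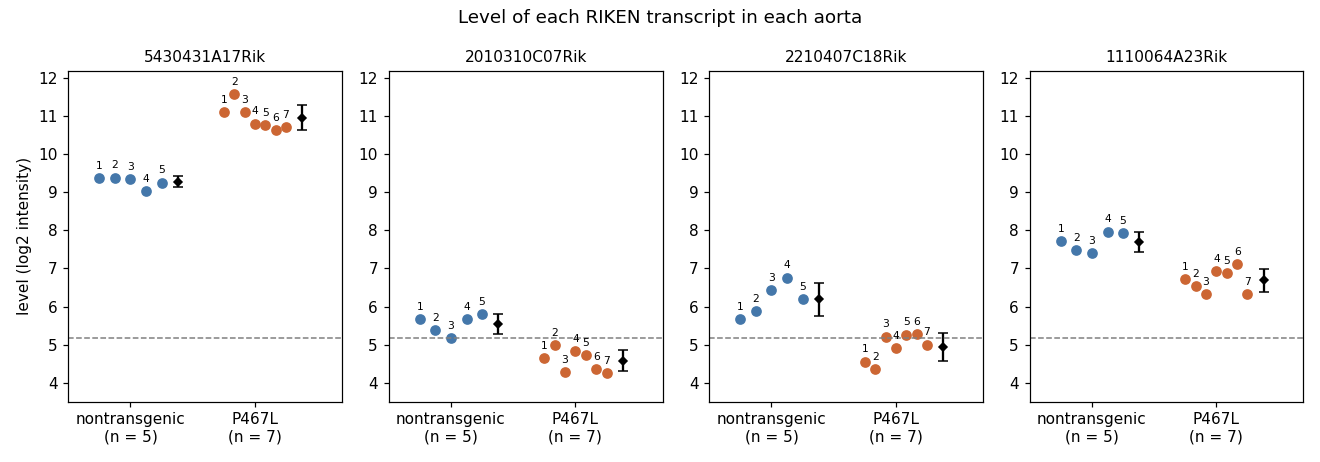
Log2 level of each RIKEN transcript (y axis, log2 intensity) on each of 5 nontransgenic and 7 P467L arrays, labelled by replicate number; diamonds and bars are the mean ± SD, and the dashed line is the background level of 5.18. All 7 P467L arrays lie above the 5 nontransgenic ones for 5430431A17Rik and below them for the other transcripts, and the P467L levels of 2010310C07Rik lie under the line.

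The Lamc3 row, which the RefSeq table ties to the same gene as 1110064A23Rik, showed a smaller difference; the 2 differences were not tested against each other. Laminin gamma-3 is a chain of some laminins, proteins of basement membranes. Its nontransgenic levels were 6.55, 6.60, 6.47, 6.41 and 6.54, and its P467L levels ran from 6.21 over a median of 6.38 to 6.48. The groups overlapped, although 32 of the 35 pairs of a P467L and a nontransgenic array had the P467L array lower. The difference was -0.15 ± 0.07 (SE) and did not pass (adjusted p = 0.999 in limma, 0.0413 before adjustment). Between arrays of one genotype the 2 rows varied together only weakly, with r = 0.262 over the 12 deviations from the group means, given as a description. Which exons or which transcript the 1110064A23Rik row covers was not tested.

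For each transcript the 3 nearest tested genes on either side on its chromosome were examined, since long noncoding RNAs can share regulation with their neighbours, and the neighbours were not used to choose the members. The family held 25 genes with Lamc3. Of these, 1 passed an adjusted p under 0.05 over all genes, beside 0.244% of all genes, and 6 had an unadjusted p under 0.05 in limma, beside 4.82% of all genes. Epha1, which overlaps 2010310C07Rik, gave the 1 call. Both Epha1 and Lamc3, by synonym the gene of 1110064A23Rik, are among the 6. Their rows may not be independent of the members, so these counts are a description. Above background were 12 of the 25, and 5 of the 25 are smell receptor genes, part of the set that gave the background. The differences of the 25 ran from -0.82 to 0.17, and 13 were higher and 12 lower.

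The neighbour that passed the threshold, lower in P467L aorta, was Epha1, an ephrin receptor tyrosine kinase, which overlaps 2010310C07Rik in the annotation. Its nontransgenic levels were 6.15, 5.81, 5.82, 5.79 and 6.01, and its P467L levels ran from 5.28 over a median of 5.47 to 5.54. The groups did not overlap. The means of 5.91 ± 0.16 and 5.43 ± 0.11 differed by -0.48 ± 0.08 (SE, limma adjusted p = 0.0325), and P467L was lower in 35 of 35 pairs of arrays. The call was lost when any 1 of the 12 arrays was left out, with adjusted p from 0.0509 to 0.101, and with the replicate block, where the difference was -0.51 (limma adjusted p = 0.147), while the difference stayed between -0.51 and -0.42 over the 23 alternatives tried. Deviations of Epha1 and 2010310C07Rik within genotypes had r = 0.106 over the 12 arrays. The orientation of 2010310C07Rik is not in the tables used here, and whether the 2 rows share probes or read-through RNA was not tested.

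The start of Epha1 lies inside the annotated extent of 2010310C07Rik, and the promoter of Epha1, which lies there too, is shown for that reason. It lies at chr6:42373219-42373518 (GRCm38.p6) on the minus strand, with its 3 GC boxes, GGGCGG on either strand, in capitals. A GC box is a motif of the factor Sp1.
Epha1: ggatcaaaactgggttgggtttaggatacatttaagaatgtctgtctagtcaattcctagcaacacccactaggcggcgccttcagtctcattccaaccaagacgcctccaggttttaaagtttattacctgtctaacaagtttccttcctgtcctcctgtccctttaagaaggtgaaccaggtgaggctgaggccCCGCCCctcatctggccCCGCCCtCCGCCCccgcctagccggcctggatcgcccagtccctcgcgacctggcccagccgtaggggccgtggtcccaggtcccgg

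In this stretch 58.0% of bases were G or C, AGGTCA was on neither strand, and the closest match to 2 copies of AGGTCA separated by 1 base had 3 mismatches. All 6 tested neighbours of 2010310C07Rik were lower in P467L aorta, with a median of -0.45, and 4 of the 6 had an unadjusted p under 0.05. Zyx, which encodes the focal adhesion protein zyxin, was 7.79 ± 0.22 and 7.50 ± 0.14, a difference of -0.29 ± 0.10 (SE, limma adjusted p = 0.72), lower in 31 of 35 array pairs. Fam131b differed by -0.04 ± 0.12. The 3 neighbours on the other side are bitter taste receptor genes. Tas2r135 differed by -0.82 ± 0.28 (limma adjusted p = 0.664), Tas2r126 by -0.46 ± 0.18 and Tas2r143 by -0.45 ± 0.22, and the mean over all arrays of each lay under the background level. The groups of all 3 taste receptors overlapped, Tas2r135 for example with 5.02 to 6.30 in nontransgenic and 4.00 to 5.54 in P467L aorta. Without the 3 arrays least correlated with the rest, Tas2r135 differed by only -0.36, and 2010310C07Rik by -1.10. Of the 10 nearest tested genes on each side, 16 of 20 were lower, with a median of -0.08, against 0.00 over all genes tested, and 5 had an unadjusted p under 0.05 in limma, 4 of them lower and 1, Olfr455, higher by 0.38 ± 0.13 (SE). Olfr455 was named after its value was seen.

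Around 5430431A17Rik none of the 6 neighbours passed. The nearest annotated gene before it, the microRNA gene Mir7052, had no row named here. Before it lie Lrrc4b, which encodes a synaptic adhesion protein, Aspdh, and Josd2, a deubiquitinase gene, with differences of 0.17 ± 0.11, 0.04 ± 0.13 and 0.17 ± 0.11 (SE). After it lie Emc10, a subunit of the endoplasmic reticulum membrane complex, Fam71e1, and Mybpc2, the fast skeletal muscle form of myosin-binding protein C, with 0.04 ± 0.08, 0.12 ± 0.10 and 0.13 ± 0.17. All 6 were higher, with a median of 0.13 beside 1.68 for 5430431A17Rik and 0.00 over all genes tested. The lowest unadjusted p of the 6 in limma was 0.132. By deviations from the group means, r with 5430431A17Rik was 0.874 for Lrrc4b, 0.697 for Aspdh and 0.552 for Josd2. For Emc10, Fam71e1 and Mybpc2 it was -0.677, 0.579 and -0.106. These r are a description, and how many of all genes reach such values was not counted. Mybpc2 stood at 6.35 on P467L replicate 4, which also had the highest score of skeletal muscle markers, 2.01 against -0.33 to -0.02 on the other P467L arrays. The part of muscle RNA in that value was not tested.

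Among the 10 tested genes on each side of 5430431A17Rik, 16 of 20 were higher, with a median of 0.10 against 0.00 over all genes. Past the threshold rose 1 of them, Clec11a, which encodes a secreted growth factor with a C-type lectin domain. Clec11a was named after its value was seen. It was 6.00 ± 0.15 in nontransgenic and 6.50 ± 0.13 in P467L aorta, a difference of 0.50 ± 0.09 (SE, limma adjusted p = 0.0320). It is a tested gene further along the chromosome before 5430431A17Rik. The call was lost in 13 of 23 alternatives, with the replicate block (adjusted p = 0.189) and with 10 of the 12 arrays left out singly among them, and adjusted p ran from 0.009 to 0.425. Shank1, a postsynaptic scaffold gene next to it, also named after its value was seen, differed by 0.33 ± 0.12 (SE, limma adjusted p = 0.723).

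2210407C18Rik lies among olfactory receptor genes. Its neighbours Olfr329, Olfr328 and Olfr324 differed by -0.18 ± 0.19, 0.10 ± 0.12 and -0.04 ± 0.14, and on the other side Olfr323 and Olfr319 by 0.16 ± 0.21 and -0.13 ± 0.15 (SE). Olfr328 was the one of these 5 receptor genes above background, at 7.12 ± 0.28 and 7.22 ± 0.15. The background was read from such genes, so most of them lie under it by construction. Trim58, a ubiquitin ligase gene known from red cell precursors, differed by -0.26 ± 0.09 and did not pass (adjusted p = 0.664 in limma, 0.0111 before adjustment), with 32 of 35 array pairs lower. Of the 20 nearest tested genes, 8 were lower, 12 higher and 0 past the threshold, with 1 at an unadjusted p under 0.05 in limma. Of the same 20, 4 were above background, and most of the 20 are smell receptor genes, to which the same limit applies.

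Around Lamc3, the position that the synonym gives for 1110064A23Rik, 5 of 6 neighbours were higher and 1 was lower. The tyrosine kinase gene Abl1 differed by -0.14 ± 0.09, the neuropeptide gene Qrfp by 0.00 ± 0.17 and Fibcd1 by 0.11 ± 0.08 (SE). Aif1l differed by 0.09 ± 0.08, the nuclear pore gene Nup214 by 0.00 ± 0.06 and Fam78a by 0.02 ± 0.08. The lowest unadjusted p of the 6 in limma was 0.173. Of the 20 nearest tested genes, 17 were above background, 0 passed and 1 had an unadjusted p under 0.05.

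**Figure D2:**
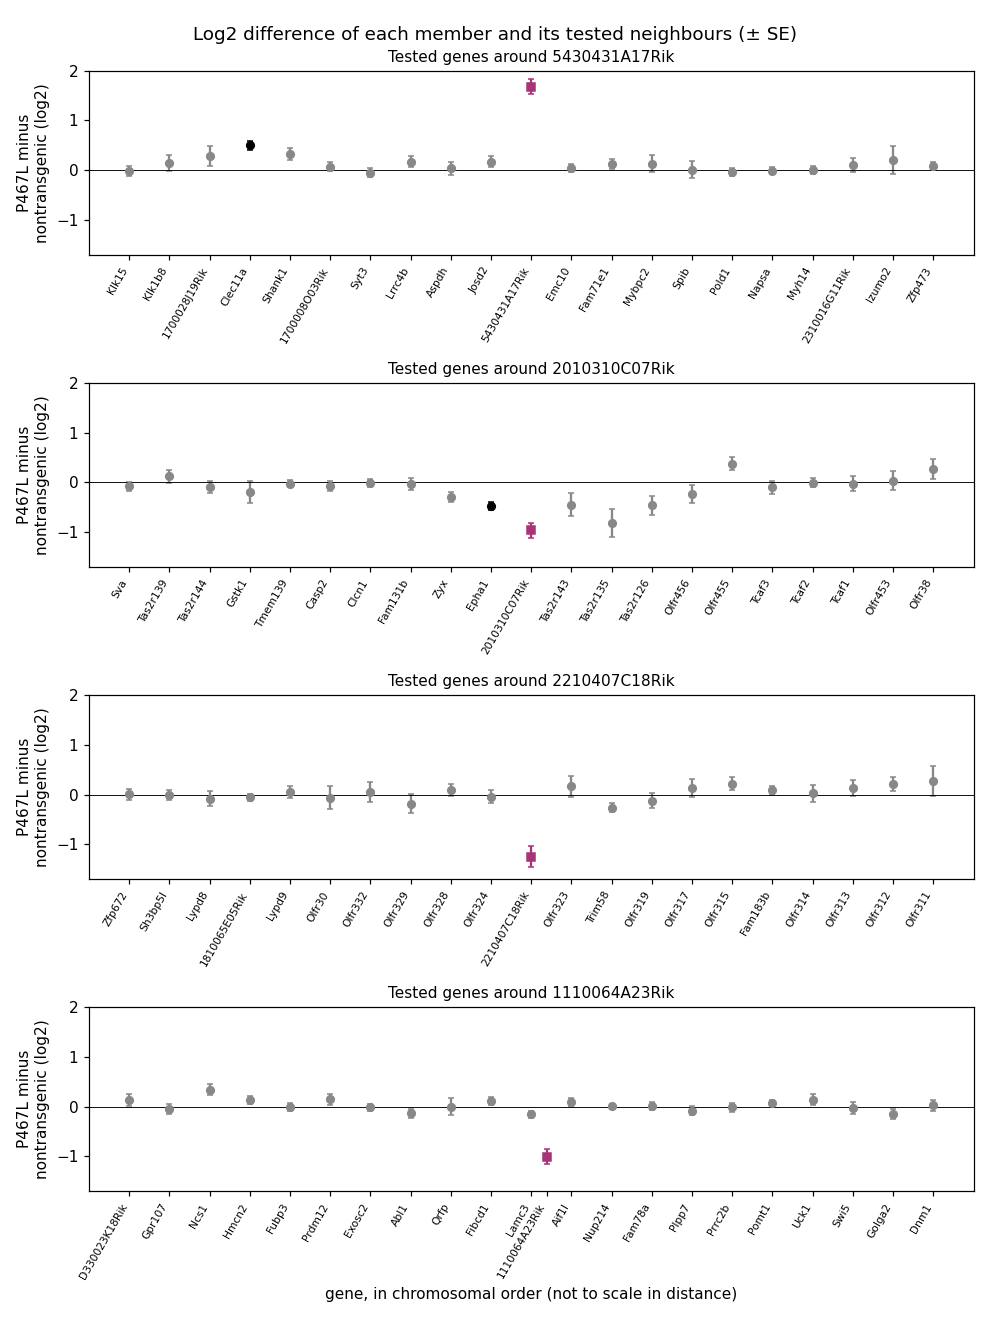
P467L minus nontransgenic difference (y axis, log2) with its SE for each RIKEN transcript (square) and the 10 nearest tested genes on each side (circles) in chromosomal order, not to scale in distance; black circles passed an adjusted p under 0.05. Most circles lie near 0, and the 2 black circles are Clec11a at 0.50 and Epha1 at -0.48. Tas2r135 lies at -0.82 and 2010310C07Rik at -0.96. Without the 3 arrays least correlated with the rest, which is not drawn, Tas2r135 was at -0.36.

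**Figure D3:**
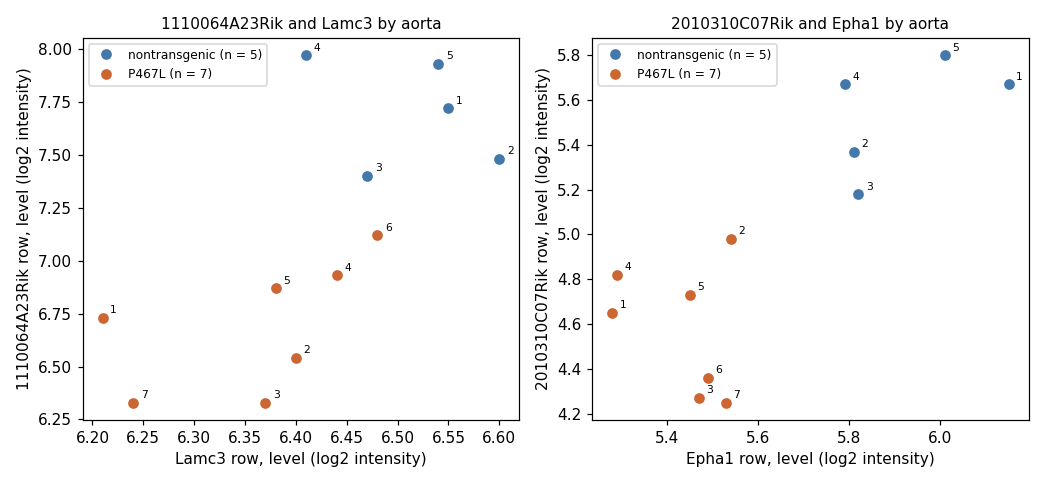
Level of 1110064A23Rik against Lamc3 (left) and of 2010310C07Rik against Epha1 (right), log2 intensity on both axes, 1 point per aorta with its replicate number. The Lamc3 levels of the 2 genotypes overlap while those of 1110064A23Rik do not, and both Epha1 and 2010310C07Rik separate the genotypes.

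Variation among the 7 P467L mice was examined in a family of 14 relations, which the choice of members did not use: the 6 pairs of transcripts, each transcript with the upper quartile of its array, and each with a score of white adipocyte markers. None passed after Benjamini-Hochberg adjustment by Pearson's r or by Spearman's rho, and 3 had an unadjusted exact permutation p under 0.05 by each. All pairings of the 7 values were used, and the smallest two-sided p they allow is 0.000397. 5430431A17Rik was higher on arrays with a low upper quartile, r = -0.852 (exact permutation p = 0.0107, adjusted 0.075) and rho = -0.811 (p = 0.0349, adjusted 0.163). Without the 2 arrays farthest from the median upper quartile, P467L replicates 2 and 5, r was -0.81. 2210407C18Rik ran the other way, r = 0.908 (exact permutation p = 0.0058, adjusted 0.075) and rho = 0.821 (p = 0.0341, adjusted 0.163), and r was 0.84 without the same arrays. It was above background on only 3 of the 7 P467L arrays, which limits this relation. 2010310C07Rik and 1110064A23Rik had r = -0.339 and 0.472 with the upper quartile. How many of all genes vary as closely with the upper quartile was not counted, so the relations are not read as particular to these transcripts. With this quartile as a covariate the genotype differences were 1.60, -0.97, -1.11 and -0.95 for 5430431A17Rik, 2010310C07Rik, 2210407C18Rik and 1110064A23Rik. The nontransgenic quartiles, 6.16 to 6.38, overlapped the P467L ones, 6.10 to 6.38.

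**Figure D4:**
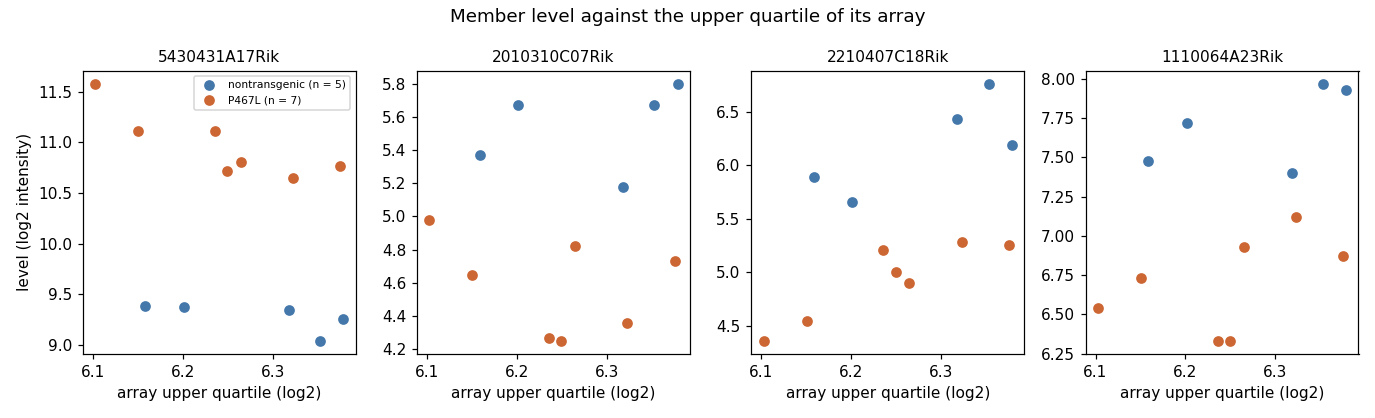
Level of each RIKEN transcript (y axis, log2 intensity) against the upper quartile of its array (x axis, log2), 1 point per aorta, by genotype. Among the P467L arrays 5430431A17Rik runs downward and 2210407C18Rik upward along the x axis (r = -0.852 and 0.908, neither past the adjusted threshold), and the groups do not overlap on the y axis.

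Of the pairs of transcripts, 5430431A17Rik and 2210407C18Rik had r = -0.778 within the P467L arrays (exact permutation p = 0.0298, adjusted 0.139; rho = -0.775, p = 0.0532). Without P467L replicates 1 and 2, taken as the 2 arrays farthest from the median of 5430431A17Rik, r was 0.054. P467L replicates 1 and 3 both stood at 11.11, so that choice was nearly a tie, and leaving out replicate 3 in place of 1 was not tried. The relation of this pair is also limited by 2210407C18Rik, which was above background on 3 of the 7 P467L arrays. P467L replicates 1 and 2 and nontransgenic replicate 2 were also the 3 arrays least correlated with the rest. Without all 3 the genotype differences were 1.55, -1.10, -1.13 and -1.04 in the order above. The other 5 pairs had r from -0.638 to 0.522. The lowest was that of 2010310C07Rik and 2210407C18Rik, which were above background on 0 and 3 of these 7 arrays, so that a relation between them, or its lack, could not be shown here. With the white adipocyte score, 5430431A17Rik had r = 0.688 (exact permutation p = 0.0821, adjusted 0.287) and rho = 0.829 (p = 0.0302, adjusted 0.163), and the other 3 transcripts had r of 0.445, -0.594 and 0.0693. That score ran from -0.18 to 0.26 in nontransgenic and from -0.39 to 0.28 in P467L aorta, and with it as a covariate the genotype differences were 1.68, -0.96, -1.25 and -1.01.

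The genes most like each transcript were taken from 10634 others above background, by Pearson's r over the 12 arrays. This r includes the genotype difference that chose the members and is a description. For 5430431A17Rik they were Scube1, a secreted and cell-surface protein gene (r = 0.945), Fam222a (0.92) and Trem2, a receptor of macrophages and microglia (0.906). For 2010310C07Rik they were Septin4 (0.9), the semaphorin receptor gene Plxna4 (0.891) and the receptor tyrosine phosphatase gene Ptprd (0.883). For 2210407C18Rik they were Pcolce2, an enhancer of procollagen processing, and Sytl5, a synaptotagmin-like protein (both 0.944), and the kinase gene Stk17b (0.934). For 1110064A23Rik they were Ptprd (0.942), the plakophilin gene Pkp4 (0.927) and Emcn, the endothelial sialomucin endomucin (0.922). Emcn is also on the endothelial marker list. It differed by -0.876 ± 0.17 (SE) and did not pass the threshold, while the mean score of that list differed by 0.03. Ptprd was thus in the first 3 of both 2010310C07Rik and 1110064A23Rik.

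Deviations from the group means, which leave the genotype difference out, gave other names. They were Ttyh3, Obsl1 and the spectrin gene Sptb for 5430431A17Rik (r = 0.932, 0.929 and 0.928), and Slurp1, Fam174c and the cytochrome c gene Cycs for 2010310C07Rik (0.888, 0.877 and 0.877). For 2210407C18Rik they were Plekha1, the histone chaperone gene Nasp and the nuclear pore gene Nup160 (0.962, 0.962 and 0.961), and for 1110064A23Rik Igsf10, Dazap2 and Dnajc24 (0.942, 0.941 and 0.933). Trem2, the third name for 5430431A17Rik over all arrays, had r = -0.139 by deviations, and Scube1 kept 0.722. All these genes were read from the same arrays, whose upper quartiles differed.

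**Figure D5:**
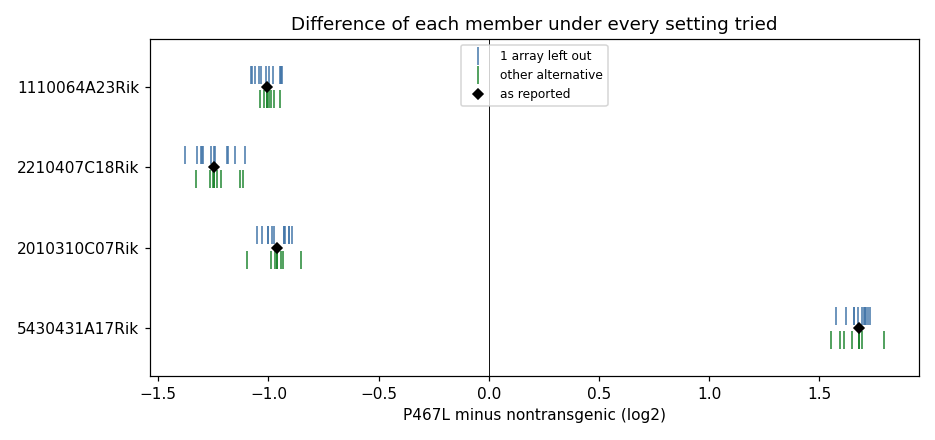
P467L minus nontransgenic difference (x axis, log2) of each RIKEN transcript as reported (diamond), with each of the 12 arrays left out in turn (upper ticks) and under the other alternatives (lower ticks). 5430431A17Rik stays between 1.55 and 1.79, and the other transcripts between -1.38 and -0.85, with no change of sign.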

How the data were processed

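Total RNA of each thoracic aorta was extracted with Trizol, purified on a column, amplified in a NuGen procedure and hybridised to Affymetrix mouse exon 1.0 ST arrays, per the labels' protocols. The deposited values are log2 intensities; the authors used RMA, Affymetrix Power Tools and the mm9 build, per the submitters' processing notes, with tool versions, probe set class and filters not given in the sources used here. Differences between dim rows are pulled towards 0 by RMA.

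The table held 101175 rows, 0 missing values and 0 columns of other samples. The platform annotation gave 22754 rows 1 symbol, 1522 several (not named) and 76899 none. The row with the highest mean was used for each of 19687 genes, of which 2224 had more than 1 row and 19270 were found in the RefSeq table by Entrez ID. The contrast was fitted over all genes in limma 3.58.1 (R 4.3.3), lmFit and eBayes on 12 arrays without covariates, with Benjamini-Hochberg adjustment, and the procedure was tested on simulated data. Precision is limited by how many arrays there are.

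The members, lists and tests were chosen with earlier results of these data known. Named genes were the members, Pparg, the 3 nearest tested genes on each side, overlapping and nearest annotated genes, the 3 most correlated genes by either measure, the Rik symbols around the threshold and the first 2 markers of each list. Arrays of equal replicate number deviated together (correlations over genes 0.227 to 0.398 for 5 numbers, own number best for 3). Nontransgenic replicates 1 and 4 matched P467L replicates 2 and 5 best. The labels state no pairing, and whether the numbers mark pairs was not settled. Pairs of equal number are therefore a description, and the number entered a fit only as the replicate block, an alternative to the main fit. Alternatives were the replicate block, leaving out arrays, 2 normalizations, 2 covariates, other rows, a filter on dim genes and 2 variance models.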

Additional observations from a re-analysis of the deposited data

Results flagged for a closer look

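No group of levels of the 4 RIKEN transcripts or of their neighbours had an array standing far from the rest by Dixon's criterion, which compares the gap between the most extreme array and the next with the whole range. Among 78 groups of values examined, 4 did, all of them cell type marker scores; chance gives about 1 in 20 groups. The skeletal muscle score of P467L replicate 4 was 2.01 and the next -0.02, a gap of 0.866 of the range. The macrophage and leukocyte score of nontransgenic replicate 3 was 0.31 and the next -0.03, a gap of 0.752 of the range. P467L replicate 3 had the lowest endothelial score, -0.09 against 0.00, a gap of 0.62 of the range, and the highest fibroblast score, 0.14 against 0.03, a gap of 0.604. On P467L replicate 4 the transcripts were at 10.81, 4.82, 4.90 and 6.93, and on P467L replicate 3 at 11.11, 4.27, 5.21 and 6.33, in the order 5430431A17Rik, 2010310C07Rik, 2210407C18Rik and 1110064A23Rik. Whether the marker scores have a part in these levels was not tested.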

How the results depend on the processing

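The differences of the 4 transcripts kept their sign under all alternatives run, 23 for each and 22 for 2010310C07Rik, which the filter on dim genes removes. The threshold call that chose them was lost in 0, 6, 7 and 5 of these for 5430431A17Rik, 2010310C07Rik, 2210407C18Rik and 1110064A23Rik. The differences ran from 1.55 to 1.79 for 5430431A17Rik, -1.10 to -0.85 for 2010310C07Rik, -1.38 to -1.11 for 2210407C18Rik and -1.08 to -0.94 for 1110064A23Rik. The count of genes past the threshold, 48, was 30 with the replicate block, 11 to 48 with 1 array left out, 8 without the 3 least correlated arrays, 76 after quantile normalization, 106 with the upper quartile as a covariate and 9 with all rows in one fit, which adjusts over more tests. The count of neighbours past it, 1, was 0 with the replicate block, 0 with any 1 array left out, and 0 without the 3 least correlated arrays, after quantile normalization and with all rows in one fit; the cause was not tested. Under the replicate block the members differed by 1.79, -0.85, -1.33 and -1.02. Of 25 neighbours, 9 changed sign under at least 1 alternative, none of them past the threshold. Above the 99th percentile of the receptor genes of the same array lay 0 arrays for 2010310C07Rik in place of 4, and 1 for 2210407C18Rik in place of 8. These levels near background limit what can be said of both in P467L aorta.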
